A study of Mus musculus with 4 samples.

Results

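The 34 genes described here make or control cellular lipid: 18 enzymes of sterol synthesis, 6 regulators and carriers of sterol, and 10 genes of fatty acid synthesis, desaturation and activation. They were chosen by symbol from a table of 54348 genes, and each symbol had 1 row. The study profiled RNA of live tdTomato-positive cells sorted from forebrains of mouse pups at postnatal day 4. The fusion group (PdgfraCreER;MN1:BEND2;AI14, 2 libraries) carried the astroblastoma fusion gene MN1:BEND2. The control group (PdgfraCreER;AI14, 2 libraries) did not carry it. Both groups had PdgfraCreER, a tamoxifen-dependent recombinase made in cells that express Pdgfra, and AI14, a reporter that turns on tdTomato after recombination. Both groups received tamoxifen on postnatal days 0 and 1. The sorted cells are therefore those that expressed Pdgfra around birth and their progeny, whatever they had become by day 4. The protocol describes forebrains of individual pups, but no label ties a library to a pup, so p-values measure only the spread between libraries, which may be technical.

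Cholesterol is built from acetyl-CoA through mevalonate, isoprenoids, squalene and lanosterol, and fatty acids from acetyl-CoA through malonyl-CoA. Both pathways are driven by the transcription factors encoded by Srebf1 and Srebf2, which the escort protein Scap carries from the endoplasmic reticulum when sterol is scarce and the Insig proteins hold back when it is plentiful. The brain makes its own cholesterol, and cells that are about to form myelin make much of it.

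Values are TPM, a length-corrected share of all transcripts, which carries no read depth. The mitochondrial share of TPM was 48.7% and 26.2% in the fusion libraries, against 10.1% and 7.30% in the control libraries. Genes reaching 1 TPM were 9050 and 10017 in the fusion libraries, against 12772 and 13219 in the control libraries. Bend2, one end of the fusion gene, had 3.82 and 8.72 TPM in the fusion libraries and was listed at 0 in both control libraries. Mn1, the other end, went the other way. It had 2.75 and 3.04 TPM in the fusion libraries and 11.6 and 17.8 TPM in the control libraries. The groups also differed in sex-linked transcripts: Eif2s3y, a Y-linked gene, was listed at 0 in both fusion libraries and had 121 and 122 TPM in the control libraries, so that genotype and sex cannot be told apart. Changes are on the log2(TPM + 1) scale, fusion minus control, with limma's adjusted p over all 12871 genes that were tested, called under 0.05. The median change over all of these genes was -1.41, and 51.3% of them were called lower and 4.95% higher. After each library was divided by its median ratio to the average library, the median change was -0.15, and 18.6% were called lower and 14.3% higher.

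The bases before the start of 4 members are shown first: 2 of the mevalonate arm, 1 after lanosterol and 1 of fatty acid synthesis. Promoter windows of 27 of the 34 members were found in RefSeq sequences of build GRCm38.p6, and 250 bases before the annotated start are printed on the strand of the gene: Hmgcs1 at chr13:119690101-119690350 (plus strand), Mvk at chr5:114444019-114444268 (plus strand), Sc5d at chr9:42264301-42264550 (minus strand), Fasn at chr11:120824548-120824797 (minus strand). Capitals mark CCAAT, the core of the NF-Y motif, and TCACNCCAC, a form of the sterol regulatory element, on either strand (ATTGG is CCAAT on the other strand).
Hmgcs1: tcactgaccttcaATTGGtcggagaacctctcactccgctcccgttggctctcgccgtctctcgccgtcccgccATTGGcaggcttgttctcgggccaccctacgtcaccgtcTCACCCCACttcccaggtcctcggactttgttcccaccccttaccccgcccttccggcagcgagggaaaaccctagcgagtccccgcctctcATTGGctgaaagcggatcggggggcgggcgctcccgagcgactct
Mvk: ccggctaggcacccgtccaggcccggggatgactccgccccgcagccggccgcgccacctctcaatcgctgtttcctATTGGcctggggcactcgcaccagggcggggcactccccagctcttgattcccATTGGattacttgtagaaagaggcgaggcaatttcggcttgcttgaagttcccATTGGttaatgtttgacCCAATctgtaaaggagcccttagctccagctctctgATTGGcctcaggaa
Sc5d: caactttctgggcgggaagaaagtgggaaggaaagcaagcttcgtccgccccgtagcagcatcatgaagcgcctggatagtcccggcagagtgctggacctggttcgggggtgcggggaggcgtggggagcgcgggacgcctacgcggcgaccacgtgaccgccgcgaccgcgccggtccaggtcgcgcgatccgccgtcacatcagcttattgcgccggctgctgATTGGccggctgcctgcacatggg
Fasn: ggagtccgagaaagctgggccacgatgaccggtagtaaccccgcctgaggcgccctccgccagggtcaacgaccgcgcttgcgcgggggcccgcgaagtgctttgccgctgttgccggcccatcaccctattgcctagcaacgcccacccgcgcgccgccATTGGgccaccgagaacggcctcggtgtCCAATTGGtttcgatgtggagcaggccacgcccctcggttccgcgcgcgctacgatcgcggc
The motif TCACNCCAC was present in 1 of 27 member windows, that of Hmgcs1, where its match TCACCCCAC began at position -137 from the start, and in 1.24% of all 32851 windows of 300 bases (250 before and 50 after the start). CCAAT was found in 21 of 27 member windows (77.8%), in 37.4% of all windows and in 38.3% of the 12355 windows of tested genes. In the 250 bases before the start it occurred 5 times in Mvk, 3 times in Hmgcs1 and in Fasn, and 1 time in Sc5d. Among the sterol enzymes with a window, Acat2 and Dhcr7 held no CCAAT. In Fasn a pair of CCAAT matches on opposite strands overlaps, as the run CCAATTGG. GGGCGG, a GC box, was in 20 of 27 member windows (74.1%), against 61.2% of windows of tested genes. CACGTG, an E-box, was in 5 of 27 (18.5%), those of Hsd17b7, Sc5d, Insig1, Scap and Elovl5, against 9.73%. The GENCODE and RefSeq starts differ for some members: the 250 bases before the RefSeq start lie wholly inside the GENCODE gene model for Tm7sf2 and Acaca and overlap it in part for 12 others, none of them printed here. These are matches of letters, and no binding was measured in these libraries.

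All 34 members were tested, and 25 fell, none rose and 9 did not pass, where 51.3% of all tested genes were lower and 4.95% higher. Of the sterol enzymes 17 of 18 fell. Of the regulators 2 of 6 fell, and of the fatty acid genes 6 of 10, which is below or near the share of all genes. The median change was -3.29 for the sterol enzymes, -1.30 for the regulators and -1.77 for the fatty acid genes, which is -1.88, 0.11 and -0.36 relative to the median of all tested genes. Over genes with a mean of at least 5 TPM that median was -1.83, so relative values depend on the genes compared. Both fusion libraries lay below both control libraries for 31 of 34 members, against 71.1% of all tested genes; Scd1, Scd2 and Acsl3 overlapped. After rescaling 14 members were lower and 1, Scd2, was higher, and the 14 were among the 25. They were 12 sterol enzymes with Acaca and Fasn: that is 12 of 18 sterol enzymes and 2 of 10 fatty acid genes, against the 18.6% of all genes. A correction for GC content and length also takes out much of the shift common to a library. With it 10 of 34 members were lower, against 1878 of 12862 tested genes. The 10 were Acat2, Mvd, Idi1, Fdps, Fdft1, Sqle, Cyp51, Nsdhl, Sc5d and Fasn. Hsd17b7 and Acaca had 1 TPM or more only in control libraries and passed the filter on low values through those libraries alone. None of the 34 passed without control replicate 1 or without control replicate 2 (limma), where 21 and 16 had an unadjusted p under 0.05. Such a fit takes the spread of the fusion pair for a single control library, and all 34 changes were negative in both.

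**Figure D1:**
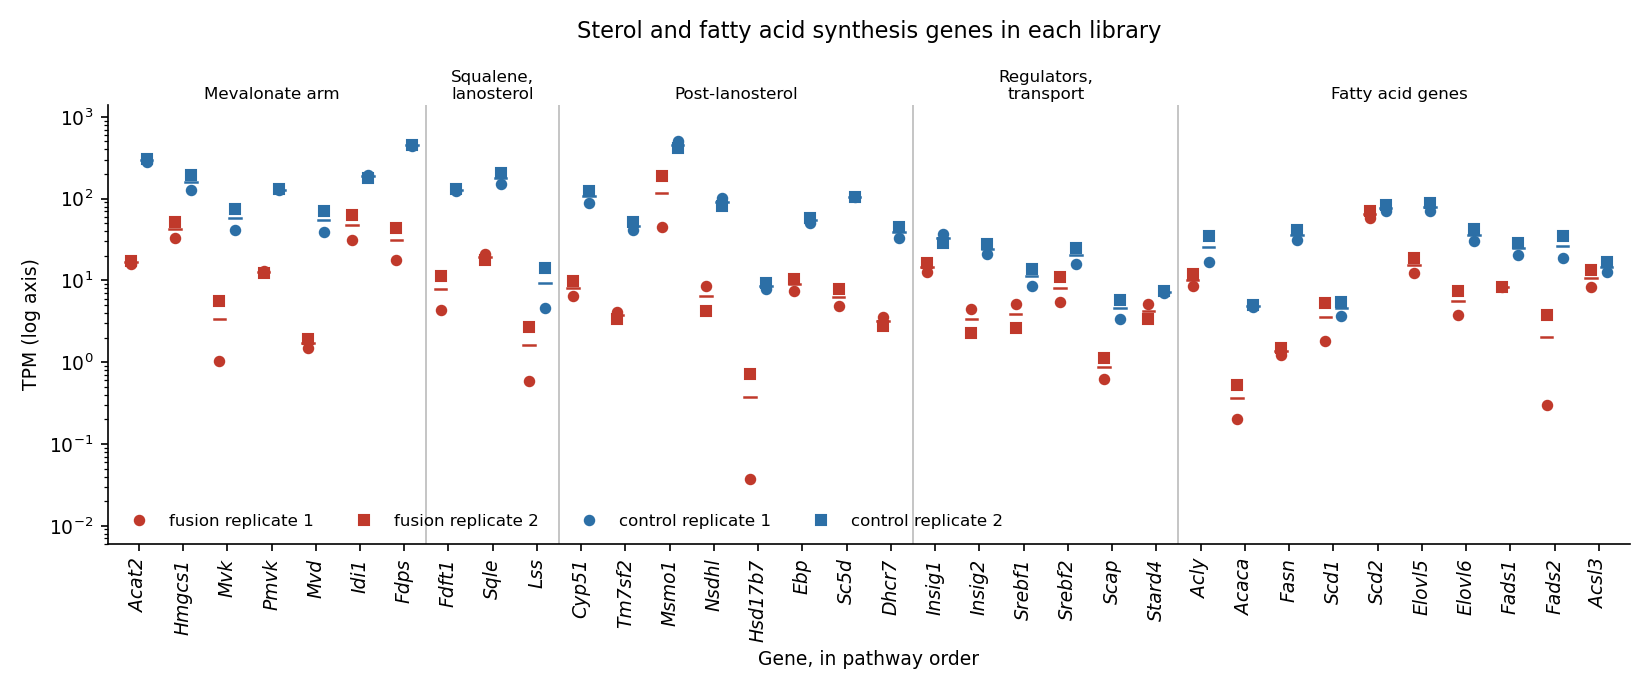
TPM of the 34 members in each library on a log axis, fusion libraries in red and control libraries in blue, with a bar at each group's mean. Circles are replicate 1 and squares replicate 2. The fusion libraries lie below the control libraries for 31 members and overlap them for Scd1, Scd2 and Acsl3.

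The sterol enzymes held a much smaller share of RNA in the fusion group. Summed over all 18, they had 219 and 457 TPM in the fusion libraries and 2455 and 2656 TPM in the control libraries. Their median level was 6.89 and 10.1 TPM in the fusion libraries, against 104 and 114 TPM in the control libraries. The means of the single enzymes were 3.78-fold to 31.7-fold lower in the fusion group. In bulk libraries, fewer cells that express a gene and less RNA per cell cannot be told apart.

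In the mevalonate arm all 7 genes fell, by unequal amounts. Acat2, which joins acetyl-CoA units to acetoacetyl-CoA, had 15.8 and 17.4 TPM in the fusion libraries and 280 and 309 TPM in the control libraries (log2 change -4.07 ± 0.32, SE, adjusted p = 0.00367). Its near copy Acat3 did not exceed 0.470 TPM. Hmgcs1 (chr13:119690379-119708260, GRCm38), which makes HMG-CoA and whose promoter above holds the TCACNCCAC match, had 33.5 and 51.3 TPM in the fusion libraries and 127 and 194 TPM in the control libraries. It changed by -1.89 ± 0.41 (SE, adjusted p = 0.0145). After rescaling Hmgcs1 changed by -0.15 (adjusted p = 0.713) and did not pass. The mevalonate kinases passed in both scalings, but not with the GC and length correction (adjusted p = 0.0523 for Mvk and 0.113 for Pmvk). Mvk (chr5:114444269-114460591), which adds a phosphate to mevalonate, had 1.04 and 5.63 TPM in the fusion libraries and 41.8 and 75.5 TPM in the control libraries (-3.96 ± 0.69, SE, adjusted p = 0.00802). Pmvk, the next kinase, had 13.02 and 12.4 TPM in the fusion libraries and 126 and 131 TPM in the control libraries (-3.24 ± 0.33, adjusted p = 0.00371).

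Mvd, the decarboxylase that makes isopentenyl diphosphate, had 1.49 and 1.95 TPM in the fusion libraries and 38.7 and 70.3 TPM in the control libraries (-4.30 ± 0.47, SE, adjusted p = 0.00384; 31.7-fold lower by means). Idi1, which interconverts the isoprenoid isomers, had 31.4 and 62.6 TPM in the fusion libraries and 195 and 179 TPM in the control libraries (-2.05 ± 0.44, adjusted p = 0.0138). Like Hmgcs1, Idi1 did not pass after rescaling (-0.30, adjusted p = 0.476). Fdps, which makes farnesyl diphosphate, the branch point to other isoprenoids, had 17.6 and 44.2 TPM in the fusion libraries and 437 and 459 TPM in the control libraries (-3.95 ± 0.51, adjusted p = 0.00423). The 4 values of each of these 3 genes left a gap between the groups that was wider than the spread within either group.

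Of the 3 genes from farnesyl diphosphate to lanosterol, 2 fell. Fdft1, squalene synthase, had 4.41 and 11.2 TPM in the fusion libraries and 123 and 133 TPM in the control libraries (-3.99 ± 0.50, SE, adjusted p = 0.00409). Sqle (chr15:59315077-59331192), which oxidises squalene in a rate-limiting step, had 21.1 and 18.003 TPM in the fusion libraries and 151 and 206 TPM in the control libraries (-3.12 ± 0.36, SE, adjusted p = 0.00384). Both also passed after rescaling, at -2.32 (adjusted p = 0.0143) and -1.38 (adjusted p = 0.0453). Lss, lanosterol synthase, was the 1 sterol enzyme that did not pass (-1.93 ± 0.71, SE, adjusted p = 0.0646). It had 0.588 and 2.68 TPM in the fusion libraries and 4.6004 and 14.2 TPM in the control libraries, so its libraries were over 2-fold apart within each group. It was called with the replicate number as a block (adjusted p = 0.0117).

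All 8 genes after lanosterol fell. Cyp51, the lanosterol demethylase, had 6.39 and 9.70 TPM in the fusion libraries and 89.4 and 124 TPM in the control libraries (-3.58 ± 0.40, SE, adjusted p = 0.00384). Sc5d (chr9:42251595-42264256), the sterol desaturase near the end of the pathway, had 4.91 and 7.78 TPM in the fusion libraries and 106 and 104 TPM in the control libraries (-3.88 ± 0.39, adjusted p = 0.00371). Dhcr7, the reductase that yields cholesterol, had 3.54 and 2.80 TPM in the fusion libraries and 33.1 and 45.4 TPM in the control libraries (-3.26 ± 0.41, adjusted p = 0.00414). The groups stood well apart for these 3 genes, which also passed after rescaling. Dhcr7 did not pass with the GC and length correction (adjusted p = 0.112). Tm7sf2, a sterol reductase, had 4.08 and 3.42 TPM in the fusion libraries and 41.3 and 51.6 TPM in the control libraries (-3.32 ± 0.39, adjusted p = 0.00384). Hsd17b7, a sterol ketoreductase, had 0.0369 and 0.712 TPM in the fusion libraries and 7.85 and 9.34 TPM in the control libraries (-2.84 ± 0.44, adjusted p = 0.00598). The low levels of Hsd17b7 in the fusion libraries make its log2(TPM + 1) change understate a 23-fold lower mean. Hsd17b7 passed the filter on low values through the control libraries alone.

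Msmo1, the methylsterol oxidase, had the highest mean TPM of all members in both groups, and its fusion libraries were 4.29-fold apart. It had 44.5 and 191 TPM in the fusion libraries and 501 and 413 TPM in the control libraries (-2.29 ± 0.72, SE, adjusted p = 0.0425). After rescaling it did not pass (-0.53, adjusted p = 0.517), nor with a pseudocount of 0.1, with no filter, without mitochondrially encoded genes or without the trend in limma. Nsdhl and Ebp, a dehydrogenase and an isomerase of the pathway, are on the X chromosome and so lie where the groups also differ by sex. Nsdhl had 8.61 and 4.27 TPM in the fusion libraries and 101 and 80.5 TPM in the control libraries (-3.68 ± 0.45, adjusted p = 0.00400). Ebp had 7.39 and 10.5 TPM in the fusion libraries and 51.0 and 57.9 TPM in the control libraries (-2.50 ± 0.38, adjusted p = 0.00585). Neither passed after rescaling, with -2.01 (adjusted p = 0.0564) for Nsdhl and -0.82 (adjusted p = 0.0953) for Ebp.

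The gene models of several members overlap other gene models on the chromosome. Tm7sf2 overlaps Vps51 on the same strand, Fdft1 overlaps Ctsb and Cyp51 overlaps Akap9 on the other strand, and no label says that the kit keeps strand. Vps51 had 4.34 and 7.77 TPM in the fusion libraries and 23.6 and 30.4 TPM in the control libraries. Ctsb had 10.6 and 23.3 TPM in the fusion libraries and 416 and 514 TPM in the control libraries. Akap9 had 0.517 and 2.45 TPM in the fusion libraries and 73.4 and 62.0 TPM in the control libraries. Srebf1 overlaps Rai1 on the other strand, which had 5.51 and 7.81 TPM in the fusion libraries and 6.38 and 6.499 TPM in the control libraries, levels near those of Srebf1. Acsl3 overlaps Utp14b on the same strand, which did not exceed 1.13 TPM. These overlaps are of whole genes from start to end, and exons were not compared. Whether reads were common to such pairs, and how they were divided, is uncertain.

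**Figure D2:**
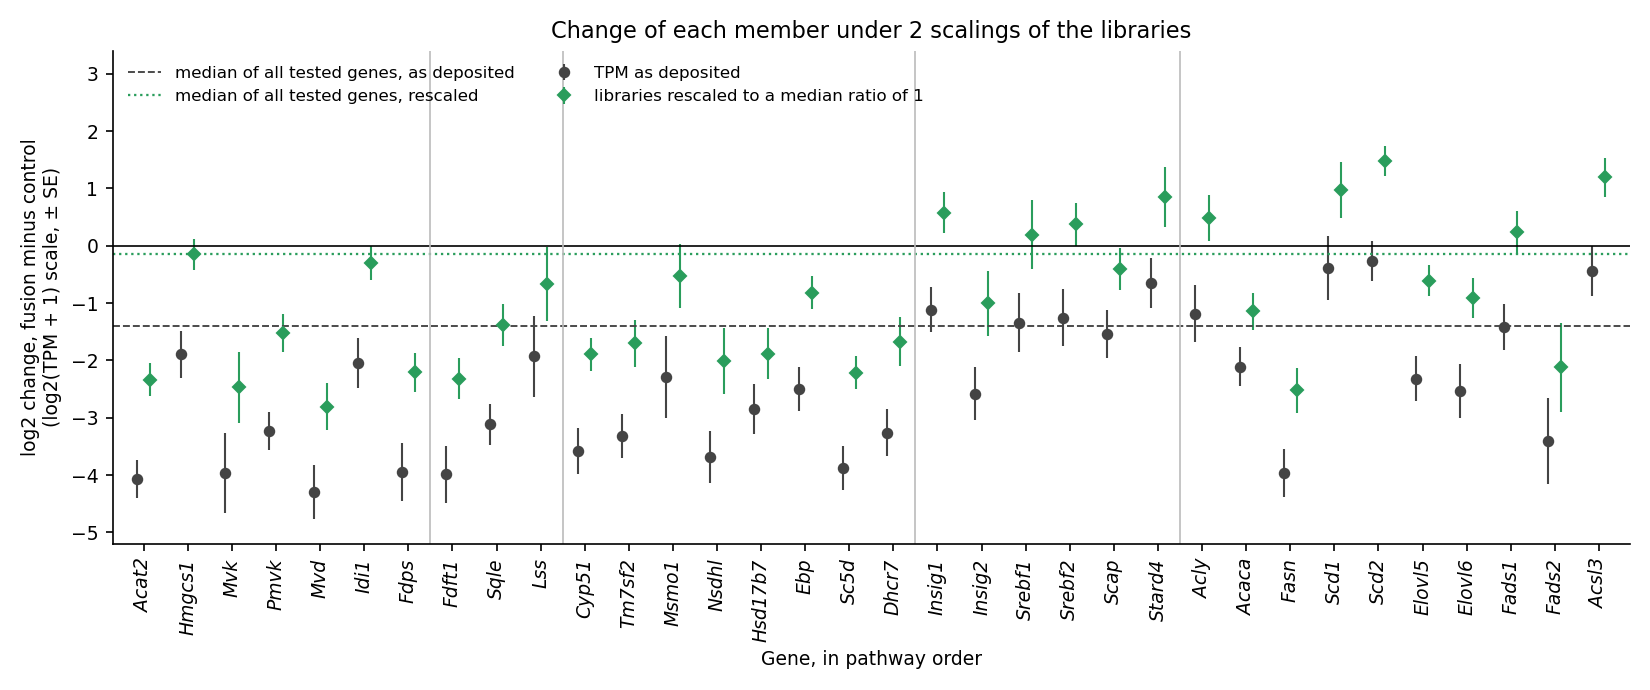
Change of each member, fusion minus control, on the log2(TPM + 1) scale with its SE, for TPM as deposited (circles) and for rescaled libraries (diamonds). Lines mark the medians of all tested genes, -1.41 as deposited and -0.15 rescaled. The sterol enzymes lie below both medians except Hmgcs1, which lies at the rescaled one, while Insig1, Srebf1, Srebf2, Stard4, Acly, Scd1, Scd2 and Acsl3 lie above both.

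The regulators were mostly not called. Insig2 and Scap fell, and Insig1, Srebf1, Srebf2 and Stard4 did not pass; after rescaling none of the 6 passed. Srebf2, whose protein favours sterol genes, had 5.39 and 10.9 TPM in the fusion libraries and 15.7 and 24.7 TPM in the control libraries (-1.25 ± 0.50, SE, adjusted p = 0.0834). Srebf1, whose protein favours fatty acid genes, had 5.19 and 2.59 TPM in the fusion libraries and 8.62 and 13.8 TPM in the control libraries (-1.34 ± 0.51, adjusted p = 0.0725). Relative to the median of all tested genes they changed by 0.15 (Srebf2) and 0.06 (Srebf1), and both turned positive after rescaling (0.37 and 0.19). Scap had 0.624 and 1.13 TPM in the fusion libraries and 3.36 and 5.76 TPM in the control libraries (-1.54 ± 0.42, adjusted p = 0.0273). It was not called with a pseudocount of 0.1, with no filter, without mitochondrially encoded genes or without fusion replicate 1.

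The Insig genes differed from each other. Insig1, itself a target of the sterol-sensing factors, had 12.6 and 16.5 TPM in the fusion libraries and 37.1 and 28.4 TPM in the control libraries (-1.11 ± 0.38, SE, adjusted p = 0.0555; after rescaling 0.58, adjusted p = 0.269). Insig2 had 4.46 and 2.26 TPM in the fusion libraries and 21.1 and 27.7 TPM in the control libraries (-2.58 ± 0.47, adjusted p = 0.00874). The ratio of Insig1 to Insig2 within a library does not depend on how libraries are scaled. It was 2.84 and 7.31 in the fusion libraries and 1.76 and 1.02 in the control libraries, so the groups did not overlap. With 2 libraries a group, an exact permutation test cannot go below 0.333, and no test was made. Stard4, a cytosolic carrier of sterol, had 5.11 and 3.42 TPM in the fusion libraries and 6.92 and 7.44 TPM in the control libraries (-0.65 ± 0.44, adjusted p = 0.247).

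The fatty acid genes were split. Fasn and Acaca, which make saturated fatty acid and its malonyl-CoA precursor, and Elovl5, Elovl6, Fads1 and Fads2, which lengthen and desaturate chains, fell. Acly, Scd1, Scd2 and Acsl3 did not pass. Fasn (chr11:120805846-120824547), fatty acid synthase, had 1.23 and 1.495 TPM in the fusion libraries and 31.005 and 41.2 TPM in the control libraries (-3.96 ± 0.42, SE, adjusted p = 0.00375; 26.6-fold lower by means). Acaca, acetyl-CoA carboxylase, had 0.203 and 0.522 TPM in the fusion libraries and 4.74 and 4.97 TPM in the control libraries (-2.11 ± 0.34, adjusted p = 0.00660). These were the 2 fatty acid genes called lower both as deposited and after rescaling, where Acaca passed narrowly (adjusted p = 0.0499). With quantile normalization or the GC and length correction Acaca was not called. Acaca had 1 TPM or more only in control libraries and passed the filter on low values through those alone.

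Scd2 (chr19:44293674-44306864), the stearoyl-CoA desaturase most abundant in brain, was not called as deposited and was called higher after rescaling. It had 57.6 and 70.6 TPM in the fusion libraries and 70.1 and 84.4 TPM in the control libraries, which overlap (-0.27 ± 0.34, SE, adjusted p = 0.532). Relative to all tested genes its change was 1.14, and after rescaling it was 1.48 ± 0.26 (SE, adjusted p = 0.0184). Scd2 was also called higher with quantile normalization (adjusted p = 0.0203). It was not called with the GC and length correction (adjusted p = 0.0716) or without mitochondrially encoded genes (adjusted p = 0.399). Scd1, its paralog on the same chromosome, had 1.81 and 5.29 TPM in the fusion libraries and 3.63 and 5.49 TPM in the control libraries (-0.38 ± 0.56, adjusted p = 0.583). The ratio of Scd2 to Scd1 was 31.8 and 13.4 in the fusion libraries and 19.3 and 15.4 in the control libraries, which overlap. The paralogs Scd3 and Scd4 did not exceed 0.160 TPM. Acsl3, which activates fatty acids for lipid synthesis, had 8.24 and 13.4 TPM in the fusion libraries and 12.8 and 16.7 TPM in the control libraries (-0.44 ± 0.44, adjusted p = 0.428; rescaled 1.19, adjusted p = 0.0528). Acly, which cuts citrate to acetyl-CoA in the cytosol, had 8.53 and 11.98 TPM in the fusion libraries and 16.9 and 34.8 TPM in the control libraries (-1.18 ± 0.50, adjusted p = 0.0929).

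Elongases and front-end desaturases fell by unequal amounts. Elovl5, an elongase of polyunsaturated chains, had 12.2 and 18.7 TPM in the fusion libraries and 70.9 and 89.4 TPM in the control libraries (-2.32 ± 0.39, SE, adjusted p = 0.00743). Elovl6, an elongase of saturated chains, had 3.81 and 7.39 TPM in the fusion libraries and 30.4 and 42.0 TPM in the control libraries (-2.53 ± 0.47, adjusted p = 0.00906). Neither passed after rescaling (-0.61, adjusted p = 0.151, and -0.91, adjusted p = 0.111). Fads2, the desaturase that opens the polyunsaturated pathway, had 0.3004 and 3.81 TPM in the fusion libraries and 18.9 and 34.5 TPM in the control libraries (-3.41 ± 0.75, adjusted p = 0.0152). Fads1, the desaturase that follows it, had 8.42 TPM in each fusion library and 20.2 and 28.9 TPM in the control libraries (-1.42 ± 0.40, adjusted p = 0.0305). The ratio of Fads2 to Fads1 was 0.0357 and 0.452 in the fusion libraries and 0.933 and 1.19 in the control libraries. The groups did not overlap, though the fusion libraries were far apart. With no filter on low values neither Fads1 nor Fads2 was called, and without mitochondrially encoded genes Fads1 was not. After rescaling Fads2 did not pass (-2.12, adjusted p = 0.0996) and the change of Fads1 turned positive (0.23).

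**Figure D3:**
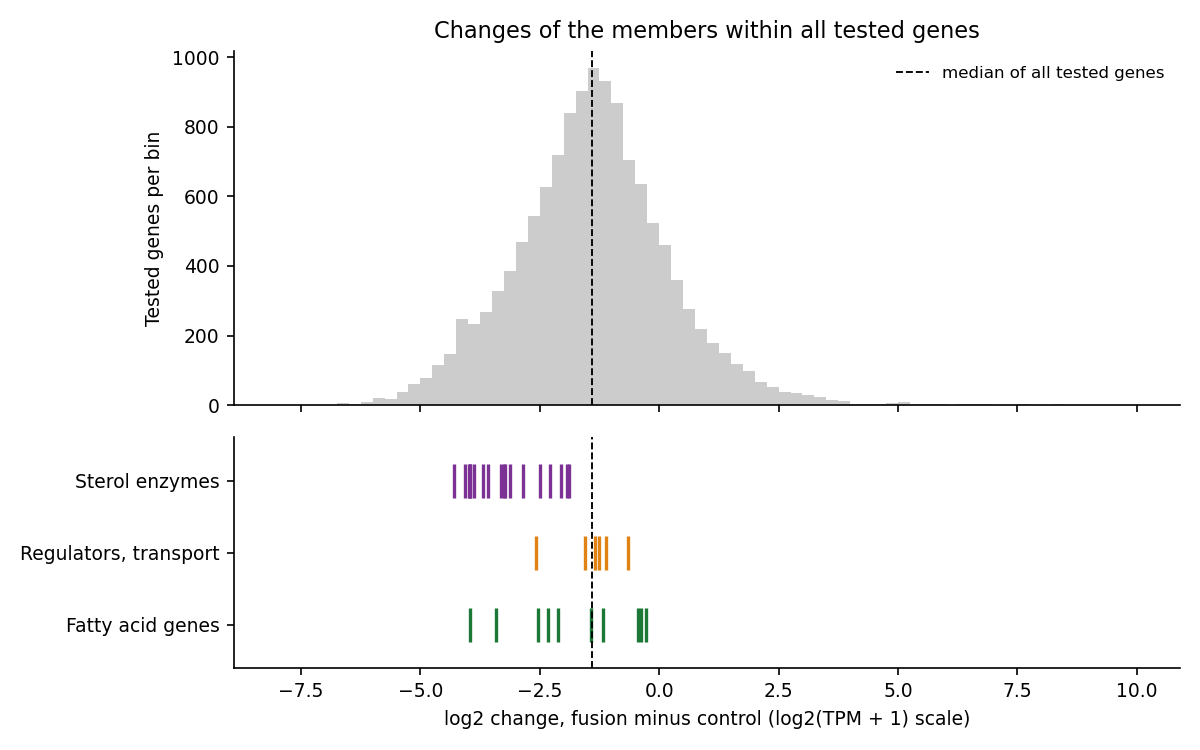
Top, number of tested genes in each bin of the change, fusion minus control on the log2(TPM + 1) scale, with their median as a dashed line. Bottom, each tick is 1 member. All 18 sterol enzymes lie left of the median, while 4 of 6 regulators and 4 of 10 fatty acid genes lie right of it.

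Rescaling leaves ranks within a library as they are. The percentile of a gene's TPM among the 12871 tested genes of its library had a median over the sterol enzymes of 71.3 and 71.8 in the fusion libraries and 87.7 and 87.8 in the control libraries. For 16 of 18 sterol enzymes both fusion ranks were below both control ranks, and Hmgcs1 and Lss overlapped; over all tested genes the share was 35.8%. The same held for 5 of 10 fatty acid genes and for 1 of 6 regulators, Insig2; a difference between roles was not tested. Mvd stood at the 39.9th and 37.8th percentile in the fusion libraries and at the 76.7th and 82.8th in the control libraries. For Insig1, Srebf2, Stard4, Acly, Scd1, Scd2 and Acsl3 both fusion ranks were above both control ranks, as for 33.8% of all tested genes. Scd2 stood at the 92.8th and 91.3rd percentile in the fusion libraries and at the 84.0th and 85.1st in the control libraries. The ratio of the median sterol enzyme to the median fatty acid gene was 1.14 and 1.27 in the fusion libraries and 5.30 and 3.29 in the control libraries.

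**Figure D4:**
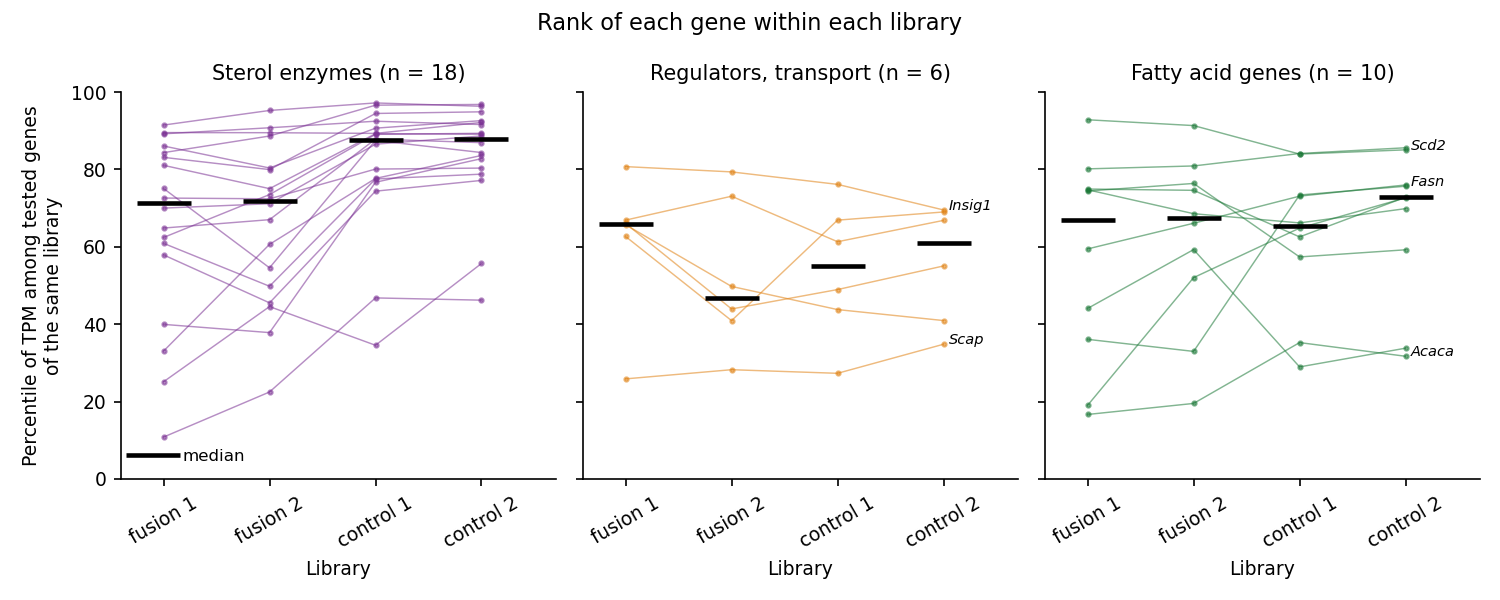
Percentile of each member's TPM among the tested genes of the same library, by library and role; thin lines join the values of 1 gene and thick bars are medians. Sterol enzymes rank lower in the fusion libraries, with medians of 71.3 and 71.8 against 87.7 and 87.8 in the control libraries, and Scd2 ranks higher.

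Fusion replicates differed more from each other than control replicates did, both in these genes and, by correlation, over all tested genes. TPM was over 2-fold apart between the fusion libraries for 11 of 34 members, and between the control libraries for 2, Lss and Acly. The 11 were Mvk, Fdps, Fdft1, Lss, Msmo1, Nsdhl, Hsd17b7, Srebf2, Acaca, Scd1 and Fads2. The share of all tested genes that lay over 2-fold apart was not counted, so whether the members stand out in this was not tested. Over all tested genes, log2(TPM + 1) had a Pearson correlation of 0.894 between the fusion libraries and 0.973 between the control libraries; genes are not independent replicates.

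Markers of cell types were read in the same libraries. Precursor cell markers were present throughout, and 5 of 9 fell, near the 51.3% of all genes, and after rescaling 0 were lower and 1 higher. Their sum was 458 and 588 TPM in the fusion libraries and 1272 and 1627 TPM in the control libraries. Their median change of -1.30 was 0.11 relative to all genes. Oligodendrocyte markers had 7 tested members of 9, and all 7 fell. Of the 7, 2 had 1 TPM or more only in control libraries and passed the filter on low values through those alone. After rescaling 4 were lower and 3 did not pass. The 9 oligodendrocyte markers summed to 182 and 147 TPM in the fusion libraries and to 2044 and 2877 TPM in the control libraries. Mog and Opalin were listed at 0 in both fusion libraries. The median change of these markers was -3.51, beside -3.29 for the sterol enzymes. Microglia and macrophage markers summed to 486 and 714 TPM in the fusion libraries and to 120 and 56.7 TPM in the control libraries. Of 10 tested members 4 were higher and 2 lower, where 4.95% of all tested genes were higher. After rescaling 5 of the 10 were higher and 0 lower, against 14.3% of all tested genes higher. P2ry12 was listed at 0 in both fusion libraries. Fibroblast markers summed to 486 and 974 TPM in the fusion libraries and to 53.2 and 140 TPM in the control libraries. Of these 9 markers 3 were higher and 0 lower, and after rescaling 6 were higher and 0 lower. Astrocyte and radial glia markers summed to 9040 and 17245 TPM in the fusion libraries and to 9562 and 9529 TPM in the control libraries. These sums are nearly all Fabp7, with 9006 and 17173 TPM in the fusion libraries and 9331 and 9240 TPM in the control libraries. For 5 of the 8 markers both fusion libraries lay below both control libraries, and for 0 above. Of the astrocyte and radial glia markers 4 of 7 tested members were lower, and after rescaling 1 was lower and 2 higher. Neuronal markers summed to 51.9 and 35.9 TPM in the fusion libraries and to 207 and 202 TPM in the control libraries, with 4 of 7 tested members lower and, after rescaling, 2 lower and 1 higher. Endothelial markers summed to 5.88 TPM or less in each library. The part of these cell types, and of the mitochondrial share, in the changes of the lipid genes was not tested.

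Genes of neighbouring pathways were counted in the same way. Of 73 tested genes in 5 lists, 50 fell, 1 rose and 22 did not pass, against 51.3% lower over all tested genes. After rescaling 16 were lower and 5 higher, near the 18.6% lower over all genes. Of the 73, 11 had 1 TPM or more only in control libraries and passed the filter on low values through those alone. Of 10 tested genes of the isoprenoid branches 5 fell, a share like that of all genes, and 3 were lower and 1 higher after rescaling. Dhdds, for dolichol synthesis, had 0.308 and 3.20 TPM in the fusion libraries and 34.5 and 54.7 TPM in the control libraries. Rce1, which trims prenylated proteins, had 2.03 and 2.17 TPM in the fusion libraries and 36.4 and 32.3 TPM in the control libraries. Pdss1, for the side chain of coenzyme Q, was listed at 8.44 and 0 TPM in the fusion libraries and had 30.5 and 38.0 TPM in the control libraries; it did not pass after rescaling (adjusted p = 0.322). Of 11 genes for the cleavage and transport of the sterol-sensing factors 6 fell, again a share like that of all genes, led by Ufd1, Ubxn1 and Sec23a with changes of -3.32, -2.70 and -2.48. After rescaling none of that list was lower and 1 was higher.

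Of 12 tested genes for sterol esters, export and oxysterols 8 fell and 1 rose, and after rescaling 4 were lower and 2 higher. Over all tested genes 51.3% were lower and 4.95% higher, and after rescaling 18.6% and 14.3%. Nr1h2, the sterol-sensing liver X receptor beta, had 0.392 and 0.183 TPM in the fusion libraries and 19.5 and 39.7 TPM in the control libraries (-4.49 ± 0.52, SE, adjusted p = 0.00384). It is 1 of 3 genes of this list that passed the filter through control libraries alone. Npc2 and Lipa, which release cholesterol in lysosomes, changed by -3.14 (adjusted p = 0.00719) and -3.07 (adjusted p = 0.00491). Among 22 tested genes of other fatty acid steps 15 fell, against 51.3% of all tested genes. Of the 22, 6 had passed the filter through control libraries alone. After rescaling 4 were lower, a share near the 18.6% of all tested genes, and 1 was higher. Tecr, the reductase that ends each elongation cycle, had 102 and 152 TPM in the fusion libraries and 1931 and 2104 TPM in the control libraries (-4.01 ± 0.37, adjusted p = 0.00367). Hacd3, a dehydratase of the same cycle, changed by -4.14 (adjusted p = 0.00371). Elovl1, an elongase, had 0.238 and 7.94 TPM in the fusion libraries, far apart, and 107 and 109 TPM in the control libraries (-5.04 ± 0.95, adjusted p = 0.00973). Elovl1 did not pass after rescaling (adjusted p = 0.0516). Fatty acid oxidation, which runs the other way, had 16 of 18 genes lower, against 51.3% of all tested genes. Its median change was -2.65, or -1.24 relative to all genes. After rescaling 5 of 18 were lower, against 18.6% of all tested genes, and 13 did not pass. Slc25a20, the carnitine carrier, had 3.54 and 3.42 TPM in the fusion libraries and 47.0 and 58.9 TPM in the control libraries. Hadha and Eci1, enzymes of the oxidation cycle, changed by -3.22 (adjusted p = 0.0361) and -3.20 (adjusted p = 0.0209). Their fusion libraries were far apart, at 0.844 and 11.4 TPM for Hadha and 4.62 and 27.1 TPM for Eci1, and after rescaling neither passed (adjusted p = 0.214 for Hadha and 0.145 for Eci1).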

How the data were processed

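Sorted cells were amplified with a full-length single-cell kit and read as 100 bp paired ends, per the labels' protocols. The authors deposited 1 table of TPM for 54348 genes in 2 fusion and 2 control libraries. TPM keeps no depth, so no counting interval is given. The submitters' processing notes list Trimmomatic 0.39, Salmon 1.8.0, GRCm38 and mm10, with no role or annotation release.

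Genes reaching 1 TPM in at least 2 libraries were compared on log2(TPM + 1), which understates the change of low genes, with limma 3.58.1 in R 4.3.3 (eBayes with trend, 2-sided) and Benjamini-Hochberg adjustment over 12871 genes. Rescaling used the median ratio over 10965 tested genes above 0 in every library. Gene coordinates, GC content and length were matched to GENCODE M21 (GRCm38) by identifier, and promoters to RefSeq by symbol. All 34 members are named, and of each neighbouring list up to 3 called genes with the largest change. Members and lists were chosen with earlier results of these data known. Alternatives were pseudocounts of 0.1 and 5, other filters and scalings, limma settings, a replicate block, a GC and length correction, and each library left out. Groups of 2 allow no outlier test.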

Additional observations from a re-analysis of the deposited data

How the results depend on the processing

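TPM keeps no depth, so what depth limits cannot be stated, and 2 libraries a group leave 2 residual degrees of freedom. As deposited, 637 genes were higher and 6606 lower, 25 members were lower and 0 higher, and of the other pathway genes 50 were lower and 1 higher; the members' median change was -2.51, or -1.11 relative to all genes. The cause of the differences that follow was not tested, except that the GC and length correction by its construction also takes out the shift common to a library. With median ratio scaling 1846 genes were higher and 2396 lower, 14 members were lower and 1 higher, 16 other pathway genes were lower and 5 higher, and the members' median was -0.96. With quantile normalization these values were 1948, 1955, 13, 1, 19, 4 and -0.91. With the GC and length correction they were 1876, 1878, 10, 0, 17, 6 and -0.96. Without mitochondrially encoded genes 978 genes and 3 other pathway genes were higher, and the members' median was -2.05. With no filter 353 genes were higher, 29 other pathway genes lower and 0 higher, and the members' median relative to all genes was -2.13. With a mean of at least 5 TPM 405 genes and 0 other pathway genes were higher and that relative median was -0.73; with a pseudocount of 5 the members' median was -2.02. Changes that turned from negative to positive with median ratio scaling were Insig1 0.58, Srebf1 0.19, Srebf2 0.37, Stard4 0.84, Acly 0.48, Scd1 0.98, Scd2 1.48, Fads1 0.23 and Acsl3 1.19. With quantile normalization they were Insig1 0.67, Srebf1 0.21, Srebf2 0.42, Stard4 0.86, Acly 0.53, Scd1 1.05, Scd2 1.39, Fads1 0.28 and Acsl3 1.22. With the GC and length correction they were Insig1 0.56, Srebf1 0.49, Srebf2 0.27, Scap 0.87, Stard4 0.91, Acly 0.30, Scd1 1.28, Scd2 0.80, Fads1 0.71 and Acsl3 0.99. Without mitochondrially encoded genes they were Scd1 0.042, Scd2 0.30 and Acsl3 0.089, and without fusion replicate 1 Scd1 0.20. Leaving out 1 library at a time gave 14 to 1084 genes higher and 1025 to 7987 lower, 0 to 28 members lower, and 3 to 57 other pathway genes lower and 0 to 3 higher; the low ends come from leaving out a control library. With the replicate number as a block 642 genes were higher and 6978 lower and 26 members were lower, the added one being Lss. Over all tested genes, the deviations of fusion 1 and control 1 from their group means had a correlation of -0.04. With 2 libraries a group this cannot decide whether same-numbered libraries shared a litter or day, which the labels do not state. The ratio of Scd2 to Fasn was 4.45 higher on the log2 scale in the fusion libraries, and 3.698 with 1 TPM added to both genes.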

Other observations

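Some values were picked out after they had been seen and carry no test. The ratio of Scd2 to Fasn, of the main desaturase to fatty acid synthase, was 47.0 and 47.2 in the fusion libraries and 2.26 and 2.05 in the control libraries. The ratio of Insig1 to Hmgcs1, both targets of the sterol-sensing factors, was 0.378 and 0.323 in the fusion libraries and 0.292 and 0.147 in the control libraries. Mylip, the ligase that marks the low density lipoprotein receptor for degradation, was the 1 gene of the neighbouring lists that rose as deposited. After rescaling 5 genes of these lists were higher. Mylip reached 1 TPM only in the fusion libraries and passed the filter on low values through those alone. It had 3.50 and 5.57 TPM in the fusion libraries and 0.548 and 0.260 TPM in the control libraries (1.96 ± 0.37, SE, adjusted p = 0.00986 by limma over all tested genes). Acat1, the mitochondrial relative of Acat2, had 17.7 and 44.6 TPM in the fusion libraries and 201 and 200.2 TPM in the control libraries.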
